A study of Mus musculus with 18 samples.

Results

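Eosinophils and basophils are rare granulocytes of the blood, and 10 genes used to recognise them were followed here in whole blood of mice after whole-body irradiation. The genes were Il5ra, Siglecf, Epx, Prg2, Alox15, Cd200r3, Cpa3, Mcpt8, Fcer1a and Ms4a2. They were found by their names, current or older, among the array's probes that were not controls. The 10 genes had 11 probes, 2 of them for Cd200r3, of 41174 probes in all.

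Eosinophils need interleukin 5, which binds the receptor that Il5ra encodes, and they carry granules of toxic basic proteins, among them eosinophil peroxidase (Epx) and major basic protein (Prg2). Basophils and mast cells bind IgE through the high-affinity receptor whose alpha and beta chains are Fcer1a and Ms4a2, and they store proteases such as carboxypeptidase A3 (Cpa3) and, in mouse basophils, Mcpt8. Eosinophils make most of their granule proteins while they mature in the bone marrow. Several of the genes are also used by other cells, Il5ra by B-1 cells in mice, Alox15 by resident macrophages of the peritoneal cavity and Cpa3 by mast cells.

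The study took blood by heart puncture from male C57BL/6N mice, 8 to 12 weeks old, 6 h after a whole-body dose of gamma rays from a cesium source or after a sham exposure. The 8 Gy group had 6 mice, the 2 Gy group 5 and the sham group (0 Gy) 7, each on 1 array according to the labels. Globin RNA was removed and the remaining RNA was labelled with Cy3 and hybridised to a 1-colour Agilent mouse array. The PAXgene kit gave the RNA of 1 mouse of the 2 Gy group (replicate 5) and 2 sham mice (replicates 6 and 7), and the RiboPure kit that of the other 15, the whole 8 Gy group among them.

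The arrays differed in brightness. The 75th percentile of the probes' signal was 61.3 to 247 at 8 Gy, 49.2 to 198 at 2 Gy and 148 to 443 at 0 Gy. A probe is called detected here where the scanner software marked it as well above background, and 16941 to 22782 probes were detected per array at 8 Gy, 15456 to 19518 at 2 Gy and 19262 to 24446 at 0 Gy. Every level below is the log2 signal of a probe minus the log2 of that array's 75th percentile, and a level of 0 stands for a probe as bright as that percentile. Levels of different probes are not set against each other. The array labelled 0 Gy replicate 5 stood apart from the other sham arrays: its mean level of 10 B cell markers was 0.08, against 1.89 to 2.87 on the other 6, and its mean level of 9 neutrophil markers was 5.04, against 2.54 to 3.36. In whole blood, fewer cells of a type and less RNA per cell cannot be told apart.

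Of the 11 probes, 5 are shown because the readings of 5 genes (the 3 granule genes, Alox15 and Cd200r3) turn on what these 60 bases detect. Sequences and positions are those in the scanner files, which give the mouse build mm7. The Epx probe lay at chr11:87934694-87934753 on the minus strand, Prg2 at chr2:84826358-84826417 (plus), Mcpt8 at chr14:50950816-50951190 (minus), Alox15 at chr11:70427187-70427411 (minus) and the tested Cd200r3 probe at chr16:44735285-44735344 (plus). The 60 bases of the Mcpt8 probe spanned 375 genomic bases and those of the Alox15 probe spanned 225, so that these 2 probes bridge a gap in the genome, while the other 3 span 60.
Epx: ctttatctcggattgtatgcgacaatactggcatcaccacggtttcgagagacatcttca
Prg2: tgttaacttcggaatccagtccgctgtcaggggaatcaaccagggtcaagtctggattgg
Mcpt8: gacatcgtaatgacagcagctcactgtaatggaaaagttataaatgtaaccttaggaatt
Alox15: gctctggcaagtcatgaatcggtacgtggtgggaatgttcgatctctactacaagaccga
Cd200r3: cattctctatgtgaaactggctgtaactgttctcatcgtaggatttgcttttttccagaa

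Of the 4 genes of granule proteins, Epx, Prg2 and Mcpt8 were close to the limit of the arrays, while Cpa3 was detected on 14 of the 18. Epx was detected in 1 of the 7 sham mice and in no irradiated mouse. Prg2 was detected in 3 sham mice and no irradiated mouse, and Mcpt8 in 2 mice at 8 Gy, none at 2 Gy and 2 sham mice. Ms4a2, the beta chain of the IgE receptor, was detected on 3 sham arrays and on none of the 11 arrays of irradiated mice. The tests took probes detected on 5 or more of the 18 arrays, which left these 4 genes out, and their levels are given without a test.

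The other 6 genes were tested. Siglecf, an inhibitory lectin on mouse eosinophils that binds sialic acid, was detected on all 18 arrays. Alox15, the 12/15-lipoxygenase, was detected on 17 arrays, Fcer1a on 16, Cpa3 on 14, Il5ra on 8 and Cd200r3 on 6. Il5ra and Cd200r3 passed the filter through their sham arrays, 6 and 5 of them, so that a count over the 6 tested genes speaks for those alone. At 8 Gy 4 of the 10 genes were detected on no array, at 2 Gy 5 genes, and at 0 Gy none. The groups had 6, 5 and 7 arrays, and the sham arrays detected 19262 to 24446 probes each, against 15456 to 19518 at 2 Gy. The same share over all genes is not given here, so that the counts are not read as a loss of these genes. Brightness moved with the counts, and its part in them was not tested.

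**Figure D1:**
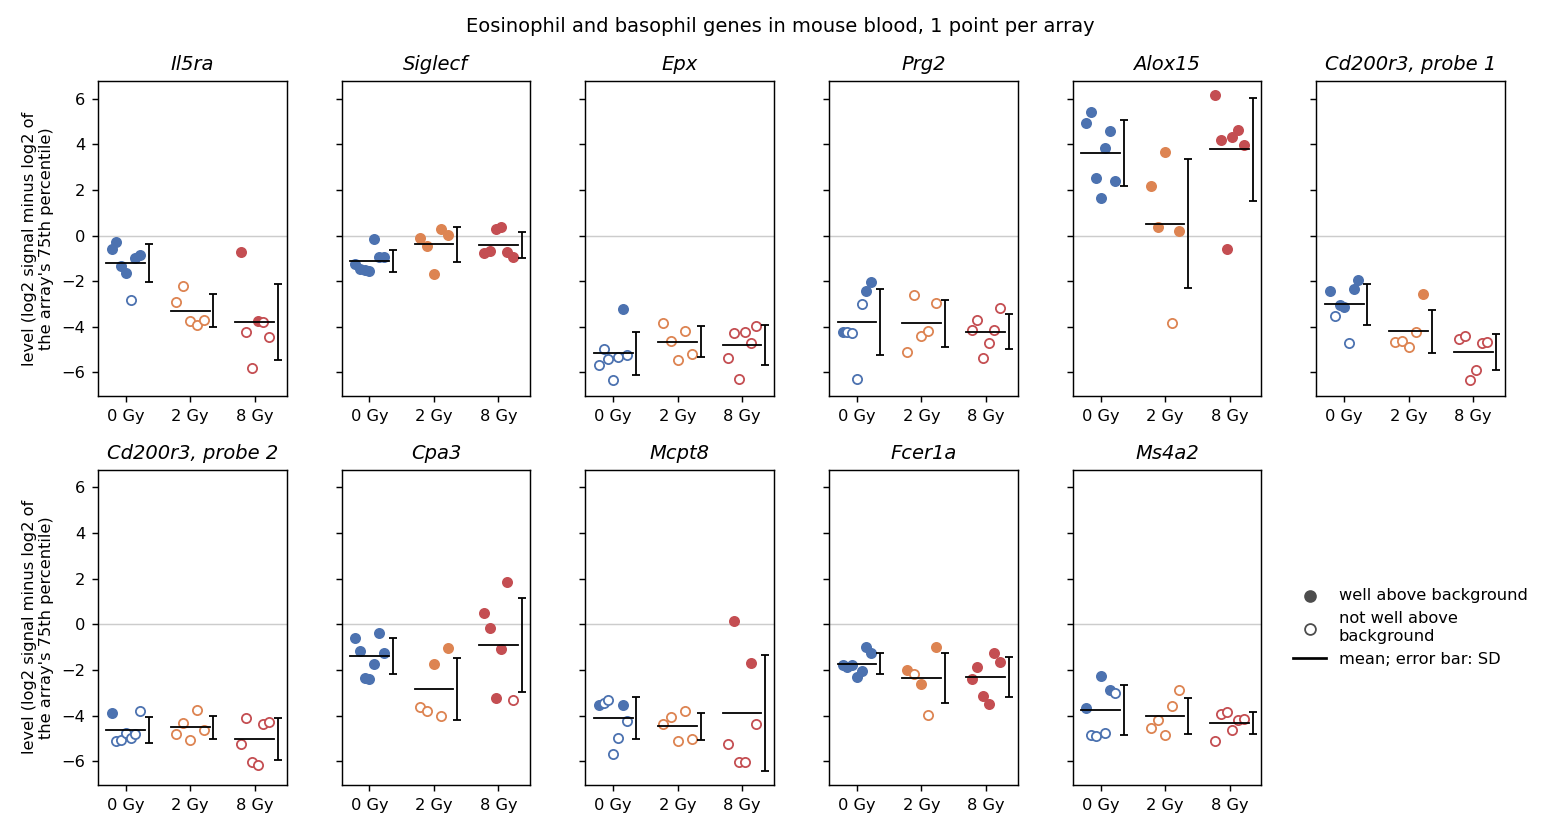
Level of each of the 11 probes (log2 signal minus the array's 75th percentile, vertical axis) on every array at 0, 2 and 8 Gy; filled points were well above background, open points were not, and lines with bars mark the group mean and SD. Il5ra lay at -0.27 to -2.83 in sham mice and below -2.83 on 5 of 6 arrays at 8 Gy, while Epx was open on all arrays but 1.

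The first question the design poses is which of these genes differed 6 h after 8 Gy from the sham mice. Of the 6 tested genes 2 passed the threshold, an adjusted p under 0.05 in limma with Benjamini-Hochberg adjustment over 13262 genes, and both, Il5ra and Cd200r3, were lower at 8 Gy. In the same fit 12.0% of all genes tested passed, 7.29% higher and 4.74% lower. Il5ra and Cd200r3 had passed the filter through their sham arrays, where they are high. The count of 2 is therefore a description and is not read against these shares. The median log2 fold change was -0.08 over the 6 genes and 0.06 over all genes, and 3 of the 6 were above 0.

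Il5ra, the alpha subunit of the interleukin 5 receptor, fell at 8 Gy. Its level was -5.80 at the lowest, -4.02 at the median and -0.71 at the highest of the 6 arrays at 8 Gy, and -2.83, -0.98 and -0.27 at the lowest, median and highest of the 7 sham arrays. At 8 Gy 5 of the 6 arrays lay below every sham array, and replicate 1 lay among them. The log2 fold change was -2.55 ± 0.65 (SE, n = 6 and 7, limma, adjusted p = 0.0275). Il5ra was detected in 2 mice at 8 Gy and 6 sham mice, so that most of its values at 8 Gy are close to background.

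The B cell markers moved with Il5ra. Of the 10 B cell markers tested, 9 were lower at 8 Gy past the threshold and none higher, with a median log2 fold change of -3.42. Their summed level, on the linear scale in multiples of the 75th percentile, was 5.87 to 71.4 with a median of 10.1 at 8 Gy and 38.0 to 288 with a median of 191 at 0 Gy. The array with the highest Il5ra at 8 Gy, replicate 1, also had the highest sum of B cell markers at that dose, 71.4. The sham array with the lowest Il5ra, replicate 5, was the one with the lowest B cell markers. The part of B cells in the Il5ra result was not tested.

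Cd200r3, a member of the CD200 receptor family found on basophils and mast cells, was also lower at 8 Gy. The probe that entered the tests had -6.32, -4.70 and -4.42 as its lowest, median and highest level at 8 Gy, and -4.71, -3.04 and -1.96 at 0 Gy. Of the 6 arrays at 8 Gy 3 lay below all sham arrays and 3 within their range, and the probe was detected in no mouse at 8 Gy and in 5 sham mice. The log2 fold change was -1.65 ± 0.39 (SE, limma, adjusted p = 0.0214). Since no value at 8 Gy was detected, a bound was set, and on these levels it was 1.05-fold lower at 8 Gy. It sets the sham mean against the lowest signals well above background on the 8 Gy arrays or the probe's own values, whichever were higher. The sham mean includes replicates 2 and 5, where the probe was not detected. With normexp the fold change had the opposite sign, so that the bound holds for the main scaling only. The other Cd200r3 probe, detected on 1 sham array only, ranged from -6.16 to -3.75 over the 18 arrays and was not tested.

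Both calls changed with the background correction, the slide and single arrays. With background corrected by normexp the log2 fold change of Il5ra was -0.44 ± 0.29 (limma, adjusted p = 0.280) and that of Cd200r3 0.34 ± 0.28 (limma, adjusted p = 0.400), the opposite sign. With each slide as a fixed block and no term for the kit, an alternative chosen after seeing the data, they were -2.80 ± 1.05 and -2.48 ± 0.50 (limma, adjusted p = 0.550 and 0.476). On the 1 slide that held both doses, the mean of the 2 arrays at 8 Gy minus the sham array was -4.18 log2 units for Il5ra and -3.70 for Cd200r3. On RiboPure arrays only, Il5ra had -2.46 ± 0.71 (limma, adjusted p = 0.0694) and Cd200r3 -1.73 ± 0.42 (limma, adjusted p = 0.0454). Il5ra lost its call without any 1 of 8 arrays (0 Gy replicates 1 and 2, 2 Gy replicate 5, 8 Gy replicates 2 to 6), with log2 fold changes of -2.56 to -2.15 and adjusted p of 0.0526 to 0.0739 in limma. Cd200r3 lost its call without 0 Gy replicate 1 (-1.42 ± 0.38, limma, adjusted p = 0.0622) or 8 Gy replicate 4 (-1.49 ± 0.40, limma, adjusted p = 0.0515).

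The 4 other tested genes did not pass the threshold between 8 and 0 Gy. Siglecf had -0.93, -0.71 and 0.38 as its lowest, median and highest level at 8 Gy, and -1.55, -1.23 and -0.16 at 0 Gy. Of the 6 arrays at 8 Gy 2 lay above every sham array and 4 within their range. Its log2 fold change was 0.80 ± 0.35 (SE, limma, adjusted p = 0.121), and 1.03 ± 0.33 (limma, adjusted p = 0.0368) without 0 Gy replicate 5, the array with the highest Siglecf among the sham mice. The 9 neutrophil markers tested were all higher at 8 Gy past the threshold, with a median log2 fold change of 2.30. Of the 9 platelet markers tested 2 were, with a median of 1.03. The part of either list in the Siglecf values was not tested.

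Fcer1a, the IgE-binding alpha chain of the receptor, had -3.49, -2.13 and -1.25 as its lowest, median and highest level at 8 Gy, and -2.33, -1.78 and -1.0 at 0 Gy. At 8 Gy 3 arrays lay below all sham arrays and 3 within their range, and the log2 fold change of -0.25 ± 0.39 (SE, limma, adjusted p = 0.690) was within its error. Cpa3 had -3.31, -0.62 and 1.87 at 8 Gy, and -2.39, -1.26 and -0.36 at 0 Gy. At 8 Gy 2 arrays lay below every sham array, 3 above every sham array and 1 between, which left a log2 fold change of 0.89 ± 0.77 (SE, limma, adjusted p = 0.439). Alox15, whose enzyme oxygenates arachidonic acid, had -0.57, 4.26 and 6.15 at 8 Gy, and 1.63, 3.85 and 5.41 at 0 Gy, with a log2 fold change of 0.09 ± 1.20 (SE, limma, adjusted p = 0.968). Its sign turned under quantile scaling (-0.13), normexp (-0.53) and the deposited value table (-0.13).

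**Figure D2:**
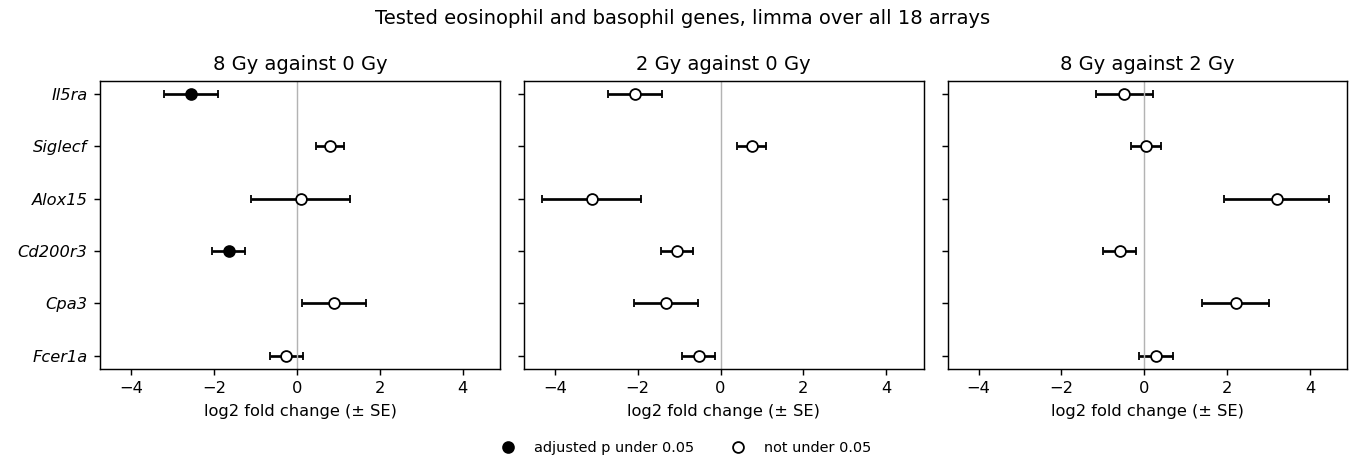
Log2 fold changes (horizontal axis) of the 6 tested genes between 8 and 0 Gy, 2 and 0 Gy, and 8 and 2 Gy, with bars of 1 SE from limma; filled points passed an adjusted p of 0.05. The points past it are Il5ra (-2.55) and Cd200r3 (-1.65) at 8 Gy against 0 Gy, and the bars of Alox15 are the widest of the 6 genes.

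Between 2 and 0 Gy none of the 6 genes passed the threshold in limma, and 7 of the 13262 genes did (0.0528%, with 0.0302% higher and 0.0226% lower). At an unadjusted p under 0.05 there were 2701 of all genes. Of the 6 genes 5 had a log2 fold change below 0, with a median of -1.18, against 0.04 over all genes. Among the 5, Il5ra and Cd200r3 had passed the filter through their sham arrays, and Alox15 and Cpa3 ran together (r = 0.69). The count and the median are a description and are not read as a shared fall. Il5ra was -2.91, -2.22, -3.72, -3.90 and -3.72 on the 5 arrays at 2 Gy. Of these, 4 lay below all sham arrays, and the remaining one, replicate 2, lay above only the sham array replicate 5. The probe was detected on none of them. On these levels the bound for Il5ra was 2.63-fold lower at 2 Gy, with a sham mean that includes replicate 5, where the probe was not detected. The fit gave a log2 fold change of -2.07 ± 0.65 (SE, limma, adjusted p = 0.132). With normexp it was -0.52, a smaller fall than the bound, so that the bound holds for the main scaling only.

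Alox15 at 2 Gy was 2.19, 0.39, 3.67, -3.84 and 0.21 on replicates 1 to 5. On 3 arrays it lay below all sham arrays and on 2 within their range, and replicate 4, at -3.84, was the only one of the 18 arrays on which the probe was not detected. The log2 fold change was -3.11 ± 1.20 (SE, limma, adjusted p = 0.181). Cpa3 was -3.64, -3.78, -1.74, -4.00 and -1.04 on the same arrays, 3 of them below all sham arrays, with a log2 fold change of -1.32 ± 0.77 (SE, limma, adjusted p = 0.331). Replicate 4 was the lowest of the 5 for both genes, while replicate 5 had the highest Cpa3 and the second lowest Alox15.

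Cd200r3 was -4.68, -4.62, -4.90, -4.22 and -2.58 at 2 Gy, 1 array below and 4 within the range of the sham arrays, with a log2 fold change of -1.05 ± 0.39 (SE, limma, adjusted p = 0.170). Siglecf was -0.11, -0.44, -1.70, 0.27 and 0.02, above all sham arrays on 3 of 5 and below them on 1, with a log2 fold change of 0.75 ± 0.35 (SE, limma, adjusted p = 0.236). Fcer1a was -2.0, -2.18, -2.62, -3.99 and -0.99, with a log2 fold change of -0.53 ± 0.39 (SE, limma, adjusted p = 0.438). Without 0 Gy replicate 5, the sham array that stood apart, Il5ra and Cd200r3 passed the threshold at 2 Gy, with log2 fold changes of -2.37 ± 0.65 and -1.29 ± 0.36 (limma, adjusted p = 0.0424 and 0.0448). Without 8 Gy replicate 1, which enters only the shared estimate of the spread, Il5ra at 2 Gy had -2.07 ± 0.46 (limma, adjusted p = 0.0382).

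The 8 and 2 Gy arrays were also set against each other. None of the 6 genes passed the threshold in limma, and none of the 13262 genes did (0.00%), with 423 genes at an unadjusted p under 0.05. The highest fitted values were those of Alox15, 3.20 ± 1.26, and Cpa3, 2.21 ± 0.81 (log2, SE, limma, adjusted p = 0.927 for each). Alox15 lay above all 2 Gy arrays on 5 of 6 arrays at 8 Gy, and Cpa3 on 3 of 6. Il5ra, -0.48 ± 0.69, Siglecf, 0.05 ± 0.37, and Fcer1a, 0.28 ± 0.41, were within their errors (limma, adjusted p = 0.937, 0.988 and 0.937). Cd200r3 had -0.60 ± 0.41 (limma, adjusted p = 0.927). A value that misses the threshold does not show that both doses gave the same level.

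Alox15 had the widest spread of the set. On the 17 arrays where it was detected it ranged from -0.57 to 6.15, a span of 6.72 log2 units (105-fold), and on the remaining array, 2 Gy replicate 4, it was near background. Its SD over all 18 arrays, 2.50, was larger than that of 99.2% of all genes tested. Siglecf was the steadiest of the 6 genes, with a range of 2.08 and an SD of 0.67, larger than that of 61.2% of the genes. With values near background included, Il5ra ranged over 5.53, Cpa3 over 5.87, Cd200r3 over 4.36 and Fcer1a over 3.00 log2 units.

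The level of Alox15 went with a list of macrophage genes. The list holds genes of resident macrophages and other cells of the serous cavities, and 13 of its 14 genes were tested. It was added to the other lists after the data were seen. It includes C1qa and Vsig4, named below among the genes most like Alox15 and Cpa3, so its r with both genes is a description only. Alox15 had a median Pearson r of 0.86 with these genes over the 18 arrays, and Cpa3 one of 0.68. The mean level of the list was lowest at -0.58 on replicate 3 at 8 Gy, the array with the lowest Alox15 at that dose, and 2.43 to 3.88 on the other 5. At 2 Gy it was -1.53 on replicate 4, the array with Alox15 at -3.84, and 3.33 on replicate 3, the array with Alox15 at 3.67. Other arrays matched less closely: replicate 2 at 2 Gy had a list mean of -1.50 with Alox15 at 0.39, and the sham array with the lowest Alox15, replicate 4 at 1.63, had a list mean of 1.82, against 0.79 and 1.07 on sham replicates 3 and 7. The summed level of the list was 28.3 to 410 at 8 Gy, 23.5 to 1221 at 2 Gy and 46.6 to 461 at 0 Gy, and none of the 13 genes passed the threshold at either dose against 0 Gy. With the mean level of the list as a covariate, an alternative chosen after seeing the data, the log2 fold change of Alox15 was -0.61 ± 0.65 between 2 and 0 Gy (limma, adjusted p = 0.655) and 0.55 ± 0.69 between 8 and 2 Gy (limma, adjusted p = 0.704). Cpa3 then had -0.11 ± 0.68 between 2 and 0 Gy and 0.93 ± 0.72 between 8 and 2 Gy (limma, adjusted p = 0.945 and 0.502). Because the list includes genes that run like Alox15 and Cpa3 on these arrays, its use as a covariate can by itself shrink their fold changes. The part of macrophages in the values of both genes was not tested.

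**Figure D3:**
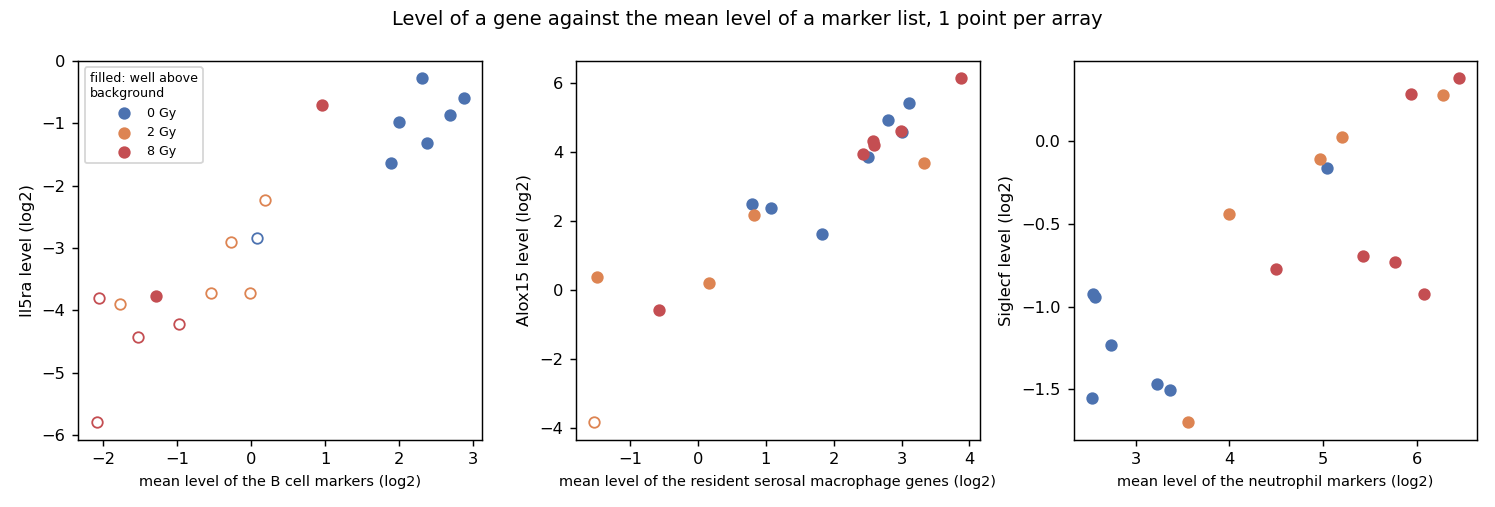
Levels of Il5ra against the mean level of the B cell markers, of Alox15 against that of the serosal macrophage genes and of Siglecf against that of the neutrophil markers (log2 relative to the 75th percentile on all axes), 1 point per array, coloured by dose and filled where well above background. The 8 Gy array with the highest Il5ra (-0.71) is the one farthest right among 8 Gy arrays, and the 2 Gy array with Alox15 at -3.84 is the one farthest left.

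Over the 18 arrays the 6 genes made 15 pairs, set to permutation tests of 100000 resamples (two-sided, Benjamini-Hochberg over the 15, threshold 0.05). Of the pairs without Il5ra or Cd200r3, only that of Alox15 and Cpa3 passed. Alox15 and Cpa3 had r = 0.69 and rho = 0.74 (permutation, adjusted p = 0.0104 and 0.0114), and r = 0.59 without the 2 arrays farthest from the median of Alox15. The pairs with Il5ra or Cd200r3 are not read as tests, because these genes were detected on 8 and 6 of the 18 arrays and mostly in sham mice. Their r sets values near background against the dose at which both genes are high, and it is given as a description with no p. It was 0.70 for Il5ra and Cd200r3 (rho = 0.65), 0.63 for Cd200r3 and Fcer1a, receptors of basophils (rho = 0.55), and -0.58 for Il5ra and Siglecf, receptors of eosinophils (rho = -0.53). The 15 values of r ranged from -0.58 to 0.70 with a median of 0.26, and 10 were above 0.

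These correlations hold dose, kit and array scaling in common. With the means of dose and kit removed, r was 0.63 for Alox15 and Cpa3, 0.47 for Il5ra and Cd200r3, 0.42 for Cd200r3 and Fcer1a and -0.35 for Il5ra and Siglecf. On the 15 RiboPure arrays Alox15 and Cpa3 had r = 0.74 (permutation, adjusted p = 0.0115). As a description with no p, r was 0.77 there for Il5ra with Cd200r3 and -0.69 for Siglecf with Cd200r3. It was 0.43 for Cd200r3 with Fcer1a and -0.56 for Il5ra with Siglecf.

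**Figure D4:**
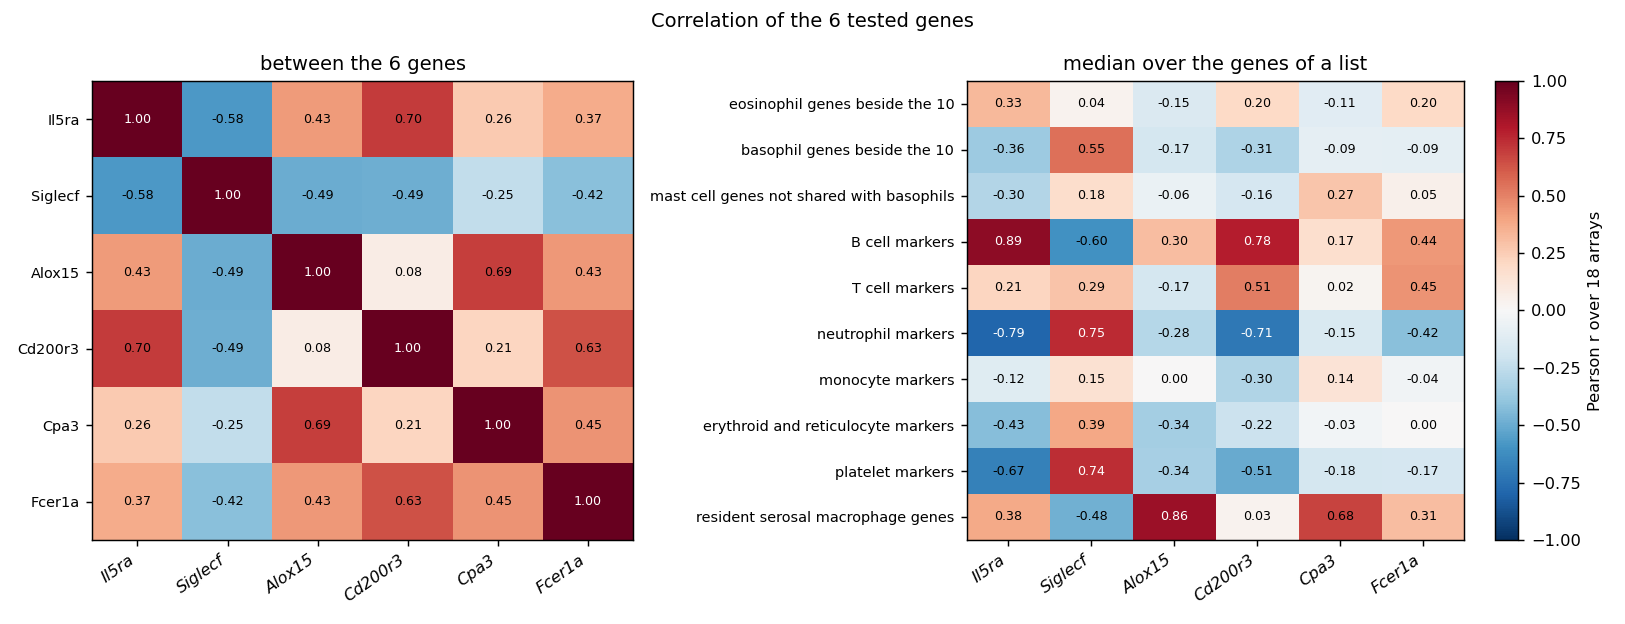
Pearson r (colour and printed value) for each pair of the 6 tested genes over 18 arrays, and the median r of each gene with the genes of the cell type lists. The pair values reach 0.70 for Il5ra with Cd200r3 and -0.58 for Il5ra with Siglecf, and Alox15 has 0.86 with the serosal macrophage list.

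The genes whose levels ran most like each tested gene are given as a description over the 18 arrays, with the value after removal of the dose and kit means in the same sentence. For Siglecf they were Lrrfip2 (r = 0.89, then 0.89), 1110032A03Rik (0.89, then 0.87) and Ier5 (0.89, then 0.93). For Alox15 they were Garnl3 (r = 0.95, then 0.92), C1qa (0.95, then 0.93) and C1qc (0.95, then 0.92), the last 2 being subunits of complement C1q made by macrophages. For Cpa3 they were Vsig4 (r = 0.79, then 0.77), a complement receptor of resident macrophages, Marco (0.75, then 0.79), a macrophage scavenger receptor, and Cma1 (0.75, then 0.66), a mast cell chymase. For Fcer1a they were Ccne1 (r = 0.85, then 0.78), Tmem192 (0.85, then 0.82) and Serp2 (0.82, then 0.77).

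For Il5ra and Cd200r3, which were detected on fewer arrays, the most similar genes were looked up after their values had been seen. Those of Il5ra were Bank1 (r = 0.95, then 0.90), Blk (0.95, then 0.89) and H2-Aa (0.95, then 0.90), of which Bank1 and Blk act in B cell receptor signalling. Those of Cd200r3 were 3 variable segments of the immunoglobulin kappa light chain, with r of 0.91 to 0.92, then 0.80 to 0.86. With whole lists the dose and kit means were left in, so that these r also hold the differences between doses. Il5ra had a median r of 0.89 with the B cell markers and 0.33 with the other eosinophil genes. Cd200r3, detected on 6 arrays, had one of 0.78 with the B cell markers and -0.31 with the other basophil genes. Over these 14 basophil genes its r ran from -0.81 to 0.62. Siglecf had 0.75 with the neutrophil markers, 0.74 with the platelet markers and 0.67 with the lipoxygenase pathway genes, so that its likeness was not particular to neutrophils. With the other eosinophil genes Siglecf had 0.04 and Alox15 -0.15.

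The 4 untested genes were detected on 1 to 4 of the 18 arrays each. Mcpt8, the basophil protease, was -6.04, -4.80 and 0.12 at its lowest, median and highest at 8 Gy, and -5.70, -3.53 and -3.31 at 0 Gy. At 8 Gy 2 arrays, replicates 2 and 5, lay above all arrays at 2 and 0 Gy, at 0.12 and -1.72, and both were detected. Both arrays were dim, with a 75th percentile of 61.3 and 83.1, against 148 to 443 at 0 Gy. Before scaling, the signal was 66.7 on replicate 2 and 25.3 on replicate 5. The latter is below the 38.4 and 40.8 of sham replicates 1 and 2. Replicates 2 and 5 at 8 Gy had Cpa3 at -0.17 and 1.87, above all sham arrays. So did replicate 1, with Cpa3 at 0.51 but Mcpt8 at -5.25 and not detected. Replicates 1, 2 and 5 shared a slide that held no sham array, and the part of slide and brightness was not tested. Fcer1a lay within the sham range on replicates 2 and 5, at -1.85 and -1.25, and Ms4a2 was detected on neither.

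Ms4a2 was -5.10, -4.18 and -3.84 at 8 Gy and -4.92, -3.68 and -2.27 at 0 Gy. Prg2 had -5.36, -4.14 and -3.17 at 8 Gy, and -6.27, -4.23 and -2.02 at 0 Gy, while Epx had -6.28, -4.49 and -3.98 at 8 Gy, and -6.34, -5.33 and -3.23 at 0 Gy. At 2 Gy they ranged from -4.86 to -2.89, from -5.09 to -2.60 and from -5.45 to -3.84. The groups overlapped for all 3 genes, with no array at 8 or 2 Gy above the highest sham array, and none of the 3 genes was detected at either dose.

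Among further genes of eosinophils, 11 of the 16 listed were tested, and 3 were higher at 8 Gy and none lower, against 7.29% of all genes higher, with a median log2 fold change of -0.01. The 3 were the receptor chains Csf2rb, Csf2rb2 and Csf2ra, described below. The next 5 genes were named after their values were seen, all 5 had a log2 fold change below 0, and none passed the threshold. Ccr3, the eotaxin receptor, averaged -0.69 ± 0.56 at 8 Gy and 0.40 ± 0.70 at 0 Gy (SD, n = 6 and 7), with a log2 fold change of -0.88 ± 0.38 (SE, limma, adjusted p = 0.124). The eosinophil-associated ribonucleases Ear1, Ear6 and Ear10, near copies whose probes may share signal, had -0.51 ± 0.37, -0.66 ± 0.32 and -0.78 ± 0.34 (limma, adjusted p = 0.343, 0.157 and 0.123), and Ptgdr2, a prostaglandin D2 receptor, -0.35 ± 0.41 (limma, adjusted p = 0.581). These 5 genes were detected on all 18 arrays. Of the 11 tested 6 had a value below 0 and 5 above, the 3 receptor chains among the latter. Gata1 averaged 1.80 at 8 Gy and 1.08 at 0 Gy, and Adgre1 5.29 and 4.92. With normexp Ear10 passed, lower at 8 Gy (-1.05 ± 0.30, limma, adjusted p = 0.0300), and Ptgdr2 turned to 0.0843. Prg3, a homologue of major basic protein also chosen after its values were seen, was detected on 1 of 18 arrays.

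The myeloid genes of the lists that follow moved with the neutrophil markers, 9 of 9 of which were higher at 8 Gy with a median of 2.30, and the part of neutrophils in these counts was not tested. Over all genes 7.29% were higher and 4.74% lower. Of the other basophil genes 14 were tested and 5 were higher at 8 Gy, with a median of 0.77: the examples with the smallest p were Hdc, the histamine-forming enzyme (2.49 ± 0.57, limma, adjusted p = 0.0193), Cd63, an activation marker in granule membranes (1.37 ± 0.31, limma, adjusted p = 0.0194), Fcer1g, the shared gamma chain of Fc receptors (1.19 ± 0.34, limma, adjusted p = 0.0395), and Ifitm1, an interferon-induced membrane protein (2.29 ± 0.66, limma, adjusted p = 0.0404). These are also expressed in other myeloid cells. Prss34, a protease of mouse basophils chosen after its values were seen, averaged -2.68 ± 0.71 at 8 Gy and -1.83 ± 0.95 at 0 Gy, with a log2 fold change of -0.30 ± 0.45 (SE, limma, adjusted p = 0.673), which turned to 0.55 with normexp. Of 12 mast cell genes 4 were tested and 1, Mcpt4, a chymase, was higher (1.44 ± 0.35, limma, adjusted p = 0.0229).

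The receptors for interleukin 5, interleukin 3 and GM-CSF share a beta chain, which was higher at 8 Gy, where Il5ra was lower. Of 11 genes of this pathway tested, 5 were higher at 8 Gy and none lower, against 7.29% and 4.74% of all genes, with a median log2 fold change of 0.89. Pim1, a kinase induced by these cytokines, had 1.27 ± 0.24, Csf2ra, the GM-CSF receptor alpha chain, 1.15 ± 0.25, Csf2rb2 1.38 ± 0.34 and Csf2rb, the common beta chain, 1.65 ± 0.41 (log2, SE, limma, adjusted p = 0.00972, 0.0152, 0.0252 and 0.0258). Csf2rb and Csf2rb2 are near copies and their probes may share signal. Of the 11 genes 4 passed under quantile scaling, 1 with normexp and 3 with the deposited values, beside 1091, 2035 and 1086 of all 13262 genes.

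Downstream of the IgE receptor, 14 genes were tested, beside 7.29% higher and 4.74% lower over all genes. Fcer1g was higher and Lat2, a membrane adaptor that B cells also use, was lower at 8 Gy (-1.15 ± 0.27, limma, adjusted p = 0.0217). Of 10 lipoxygenase pathway genes 3 were higher and none lower, beside the same shares of all genes: Alox5, the 5-lipoxygenase of leukotriene synthesis (1.66 ± 0.38, limma, adjusted p = 0.0198), Gpx4, which reduces lipid peroxides (0.99 ± 0.30, limma, adjusted p = 0.0439), and Cysltr2, a leukotriene receptor (1.04 ± 0.33, limma, adjusted p = 0.0484). Of 8 genes of the Siglec and CD200 receptor families 3 were higher and 3 lower, again beside these shares of all genes. Cd22 and Siglecg, Siglecs of B cells, had -3.82 ± 0.69 and -1.98 ± 0.53 (limma, adjusted p = 0.00898 and 0.0323), Cd200, the ligand, had -2.20 ± 0.41 (limma, adjusted p = 0.00916), and Cd33, a myeloid Siglec, had 2.39 ± 0.55 (limma, adjusted p = 0.0194). No gene of these 7 lists passed the threshold between 2 and 0 Gy. With each slide as a fixed block and no kit term none passed at 8 Gy either, and no gene of the whole array did. Under quantile scaling, normexp and the deposited values, no gene of these lists named here as past the threshold turned its sign. The count higher at 8 Gy was then 2, 0 and 2 for the eosinophil list, 2 each time for the basophil list and 1, 0 and 1 for the lipoxygenase list. It was 1, 3 and 1 for the Siglec and CD200 receptor families. Of all 13262 genes 502, 929 and 494 were higher, against 967 in the main fit. The median of the eosinophil list was -0.14, 0.08 and -0.14. Of the markers of other cells, 1 of 10 T cell markers was lower at 8 Gy, 1 of 9 monocyte and 2 of 9 platelet markers were higher, and none of 9 erythroid markers passed. Without 0 Gy replicate 5 the counts higher at 8 Gy were 6 for the lipoxygenase list, 5 for the Siglec and CD200 receptor families and 9 for the platelet markers. The count over all genes also rose, from 967 to 1935 of 13262.

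The kit used for the RNA was a further term of the fit. Over the 18 arrays, with dose in the model, Cd200r3 was 1.50 ± 0.44 log2 units higher with PAXgene than with RiboPure (SE, n = 3 and 15, limma, adjusted p = 0.0722), Fcer1a 1.15 ± 0.44 higher (limma, adjusted p = 0.163), and Il5ra differed by 0.07 ± 0.75 (limma, adjusted p = 0.970). None of the 6 genes passed the threshold for the kit, while 3.47% of all genes did. All 6 arrays at 8 Gy used RiboPure, so that a kit effect at that dose cannot be told apart from the rest of the difference beyond what the model takes from the other doses.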

How the data were processed

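RNA of whole blood was measured on 18 arrays of 1 colour. The deposited scanner files hold the spots' intensity from Agilent Feature Extraction 9.5.3.1, per the file headers. Its processed signal had been spatially and multiplicatively detrended, with no separate background subtraction, and spots well above background carry a flag. The deposited value table holds normalized intensity that looks linear and quantile-normalized, with a median of 20.7 per array. How the table was scaled is not given in the sources used here, and the log2 of its values was taken. It was used as an alternative only, with a Pearson r of 0.988 to 1.000 against the scanner values of the same arrays.

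From the scanner files, control spots were left out, the log2 processed signal of a probe's spots was averaged, and the log2 of each array's 75th percentile was subtracted. Arrays carry no read depth, and their number limits the precision. The filter kept probes with that flag on 5 or more of the 18 arrays, and 1 probe a gene by the highest mean, giving 13262 genes. Gene names were taken from the files and brought up to date by accession or symbol with RefSeq's table. limma 3.58.1 in R 4.3.3 fitted dose and kit on all 18 arrays (lmFit, eBayes), with Benjamini-Hochberg adjustment over all genes and a threshold of 0.05. In simulated arrays of the comparison of 8 with 0 Gy over 13262 genes, 28.5%, 82.5% and 94.0% of 200 changed genes were recovered at 1, 2 and 3 log2 units. Nothing in the labels says more of the replicates than that each is a separate mouse, and p-values measure the spread between these arrays.

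A bound was set where a probe had no flag on any array of a group: the other group's mean against the mean of, per array, the higher of the lowest signal well above background and the probe's own value. The other group's mean includes its arrays without the flag, and the bound holds for the main scaling only. The 10 genes and all gene lists were chosen with earlier results of these data known. Genes named from a list were at most 4 past the threshold by smallest p; genes alike in pattern were the 3 with the highest r for each tested gene detected on 9 or more arrays. Alternatives covered scaling, background correction, the filter, slide, scan day, kit, brightness and each array left out. The arrays lay on 8 slides, 5 of them with more than 1 dose.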

Additional observations from a re-analysis of the deposited data

Results flagged for a closer look

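Alox15 was -0.57 on replicate 3 at 8 Gy, far from the other 5 arrays at that dose, which lay between 3.95 and 6.15. The gap exceeded Dixon's critical value for 6 samples. Of 33 groups checked in this way 1 was picked out, and chance alone picks out about 1 in 20. The mean level of the serosal macrophage genes was -0.58 on the same array, against 2.43 to 3.88 on the other 5.

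Mcpt8, which was too often near background to be tested, was well above background and above every sham array on 2 arrays at 8 Gy, at 0.12 on replicate 2 and -1.72 on replicate 5. The highest sham array had -3.31, and the other 4 arrays at 8 Gy lay between -6.04 and -4.35. Before scaling, the signal on replicate 5 was 25.3, below the 38.4 and 40.8 of sham replicates 1 and 2, and both 8 Gy arrays were dim. No difference between the doses was tested for this gene.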

How the results depend on the processing

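Between 8 and 0 Gy 2 genes of the set passed the threshold. The count was 0 with normexp, with a filter of 9 arrays (which leaves both genes out), with array brightness as a covariate and with the replicate block. It was also 0 with the slide as a fixed block and no kit term, chosen after seeing the data, while both calls stayed with the slide as a random block. It was 1 on RiboPure arrays only and with the arrays of both doses only. Leaving out 1 array at a time gave 0 to 3: 0 without 0 Gy replicate 1 or 8 Gy replicate 4, 1 without 0 Gy replicate 2, 2 Gy replicate 5 or 8 Gy replicate 2, 3, 5 or 6, and 3 without 0 Gy replicate 5. Between 2 and 0 Gy the count of 0 became 0 to 2, and between 8 and 2 Gy it was 0 under every alternative run. The replicate numbers did not pair the arrays (r of -0.50 to 0.31 over 16 pairs), and the block changed no other call of the set.

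Over all genes, 1595 passed between 8 and 0 Gy, against 574 with no filter, 591 with the slide and 810 with the scan day as a random block, 243 with the replicate block, 270 on RiboPure arrays, 775 with the arrays of both doses only, 0 with brightness as a covariate (1834 at an unadjusted p under 0.05) and 0 with the slide as a fixed block (1168 unadjusted), 2556 with the serosal covariate, and 266 to 2979 with 1 array left out. Of the calls 60.6% were higher at 8 Gy, and 46.0%, 45.7% and 45.5% with quantile scaling, normexp and the deposited table. Between 2 and 0 Gy the 7 calls became 40 with quantile scaling, 54 with normexp, 72 with the replicate block, 20 with every probe, 2 with the arrays of both doses only, and 0 to 866 with 1 array left out.

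Signs that turned were as follows. Between 8 and 0 Gy Alox15 had -0.13 (quantile), -0.53 (normexp), -0.13 (deposited table), -0.0878 (replicate block), -0.0627 (serosal covariate) and -0.38 to 0.96 with 1 array left out, below 0 without 0 Gy replicate 3 or 4, 2 Gy replicate 4 or 8 Gy replicate 1, 4 or 5. With normexp Cd200r3 had 0.34 (8 against 0 Gy), 0.13 (2 against 0 Gy) and 0.21 (8 against 2 Gy), Fcer1a had 0.32 (8 against 0 Gy) and 0.17 (2 against 0 Gy), and Il5ra had 0.0782 (8 against 2 Gy). Between 8 and 2 Gy Siglecf had -0.00380 (scan day), -0.0202 (no kit term), -0.13 (slide as a fixed block) and -0.30 to 0.25 with 1 array left out, below 0 without 2 Gy replicate 3 or 8 Gy replicate 3 or 4. Fcer1a had -0.11, without 2 Gy replicate 4, to 0.52 with 1 array left out, and -0.0347 with the serosal covariate. The causes were not tested. The correlation of Alox15 with Cpa3 passed in the main setting, under quantile scaling (r = 0.72, permutation, adjusted p = 0.00645) and on RiboPure arrays. Signal over background limits Epx, Prg2, Ms4a2 and Mcpt8 at every dose, and Il5ra and Cd200r3 in irradiated mice.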
